A study of Mus musculus with 6 samples.

Results

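The genes described here encode 8 adhesion molecules of the contact between axons and myelinating glia and of the node of Ranvier: Nfasc, Nrcam, L1cam, Ncam1, Cntn1, Cntn2, Cntnap1 and Lgi4. They were chosen by name, and all 8 were found among the 22057 genes of the deposited table. RNA had been sequenced from cultured neural progenitor cells, labelled p53-null, of mice 62, 68 and 69. In the PDGFA group (n = 3) the cells had spent 4 days in stem cell medium with platelet-derived growth factor A, at 20 ug/ml as the labels write it, a unit that could not be checked. In the EF group (n = 3), the control of the series design, cells of the same mice had spent 4 days in that medium with heparin and the epidermal and fibroblast growth factors. All 6 libraries carry the same p53-null label, and no library of cells with p53 was part of the comparison. The labels do not give how p53 was removed or whether a culture was 1 clone, and the media differed in the factors removed as well as in the factor added.

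These molecules hold myelin and axon together in a fixed order along the fibre. At the paranode, beside each node, the glial form of neurofascin (Nfasc) on the myelin loops meets contactin 1 (Cntn1) and contactin-associated protein 1 (Cntnap1) on the axon. At the node itself the neuronal form of Nfasc and Nrcam are tied to ankyrin and spectrin below the axonal membrane, and contactin 2 (Cntn2) joins Cntnap2 in the neighbouring juxtaparanode. Read counts per gene do not separate the glial from the neuronal form of Nfasc.

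Libraries held between 27270246 and 39601349 reads, recovered from the deposited values as whole reads. Of 17068 genes tested for PDGFA against EF, 3720 were called higher and 3076 lower, at an adjusted p under 0.05. Markers of the cell type named in the labels, Nes, Sox2 and Vim, were read in every library at 1600.2 or more normalized counts, and of 6 neural progenitor markers 2 rose and 4 fell, with the calls of Sox2 and Vim lost without both libraries of mouse 68. Oligodendrocyte markers rose in 9 of 9 genes, with a summed level of 345118 to 418511.5 normalized counts in PDGFA and 2710.2 to 4399 in EF. Neuron markers rose in 2 and fell in 1 of 10 tested, with summed levels of 29985 to 40304 in PDGFA and 26292 to 31444 in EF. Map2 held most of that sum, and the other 10 neuron markers in the table summed to 5275 to 8211 in PDGFA and 1296 to 2462 in EF. Most of that rest in PDGFA was Dcx, with 5215.5, 5701.5 and 3884 of 7637, 8211 and 5275 for mice 62, 68 and 69. In EF Dcx had 24.9, 345.6 and 21.7 of 1296, 2462 and 2228, so the higher sum in PDGFA was mostly that 1 gene. Astrocyte markers rose in 4 of 7 genes, with summed levels of 135865 to 217743 in PDGFA and 44165 to 77095 in EF. Gfap alone had 72518 to 107416 normalized counts in PDGFA and 19.15 to 67.55 in EF. Aldh1l1, Slc1a3 and Slc1a2 were not called, with Aldh1l1 lower in PDGFA in 3 of 3 mice and Slc1a3 in 2 of 3. The EF library of mouse 68 stood apart from the other EF libraries for several of the genes below, and results that rest on it are given with and without it. In bulk RNA, fewer cells of a type and less RNA per cell cannot be told apart.

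The promoters of Nfasc and Nrcam, close relatives in the L1 family of which Nfasc was called higher in PDGFA and Nrcam was not, are shown because their start regions differ in CG pairs. RefSeq's table for GRCm38.p6 gave 9 windows of 250 bases before a transcript start for 5 of the 8 genes. The windows below run 5′ to 3′ on the gene's strand, up to the start, with CG pairs, the sites of DNA methylation, in capitals. They lie at chr1:132707327-132707576 on the minus strand and at chr12:44328635-44328884 on the plus strand. The Nfasc window stands before an inner start, inside the annotated gene (132564690 to 132741797). The Nrcam window ends directly before the first base of its gene (44328885), so the windows are not at matching starts.
Nfasc: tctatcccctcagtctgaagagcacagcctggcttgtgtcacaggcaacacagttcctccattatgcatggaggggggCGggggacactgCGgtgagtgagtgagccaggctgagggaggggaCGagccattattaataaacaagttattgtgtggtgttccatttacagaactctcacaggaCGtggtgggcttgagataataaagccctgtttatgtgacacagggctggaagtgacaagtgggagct
Nrcam: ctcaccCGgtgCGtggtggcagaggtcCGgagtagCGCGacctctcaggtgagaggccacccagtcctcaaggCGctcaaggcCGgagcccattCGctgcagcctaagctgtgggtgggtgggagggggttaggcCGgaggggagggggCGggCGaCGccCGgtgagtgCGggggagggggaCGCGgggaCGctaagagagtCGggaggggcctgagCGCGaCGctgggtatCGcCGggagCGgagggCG
The Nfasc window shown held 4 CG pairs, a count that 62.6% of 32536 such windows of the table reach or exceed. Another Nfasc window, also inside the gene and not shown, held 1, which 92.2% of windows reach or exceed. The Nrcam window held 25, which 10.8% of windows reach or exceed, and the median window held 6. L1cam, a relative that was called higher, had 20 and 12 CG pairs in its windows, which overlap each other and lie inside the gene. Whether the count of pairs goes with the calls was not tested. The motifs were searched on both strands of the windows: ACAAAG and ACAATG, bound by SOX factors, the E-box CAGCTG, and CTGGCAC and CTGGTAC, bound by the myelin factor MYRF. They stand in 16.5%, 10.5%, 13.1%, 4.21% and 1.82% of all windows, in that order. None of them stands in the Nfasc windows or the Nrcam window. The single match in the 9 windows was an ACAATG, read on the opposite strand, 139 bases before an inner start of Cntn1. These are letters in 1 window per start, not measured binding or methylation.

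Of the 8 genes 5 rose in PDGFA, 1 fell and 2 did not pass the test. Over all genes tested, 21.8% were called higher, 18.0% lower and 39.8% in either direction. The median log2 fold change of the 8 genes was 1.37, beside -0.009 over all genes tested. The PDGFA and EF values did not overlap in 5 of the 8 genes, 4 of them higher and 1 lower in PDGFA. Of all genes tested, 29.2% lay higher in PDGFA with no overlap, 26.3% lower and 55.5% in either direction. The gene in the 8 with the largest abundance was Nfasc and the gene with the largest fold change was Lgi4.

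**Figure D1:**
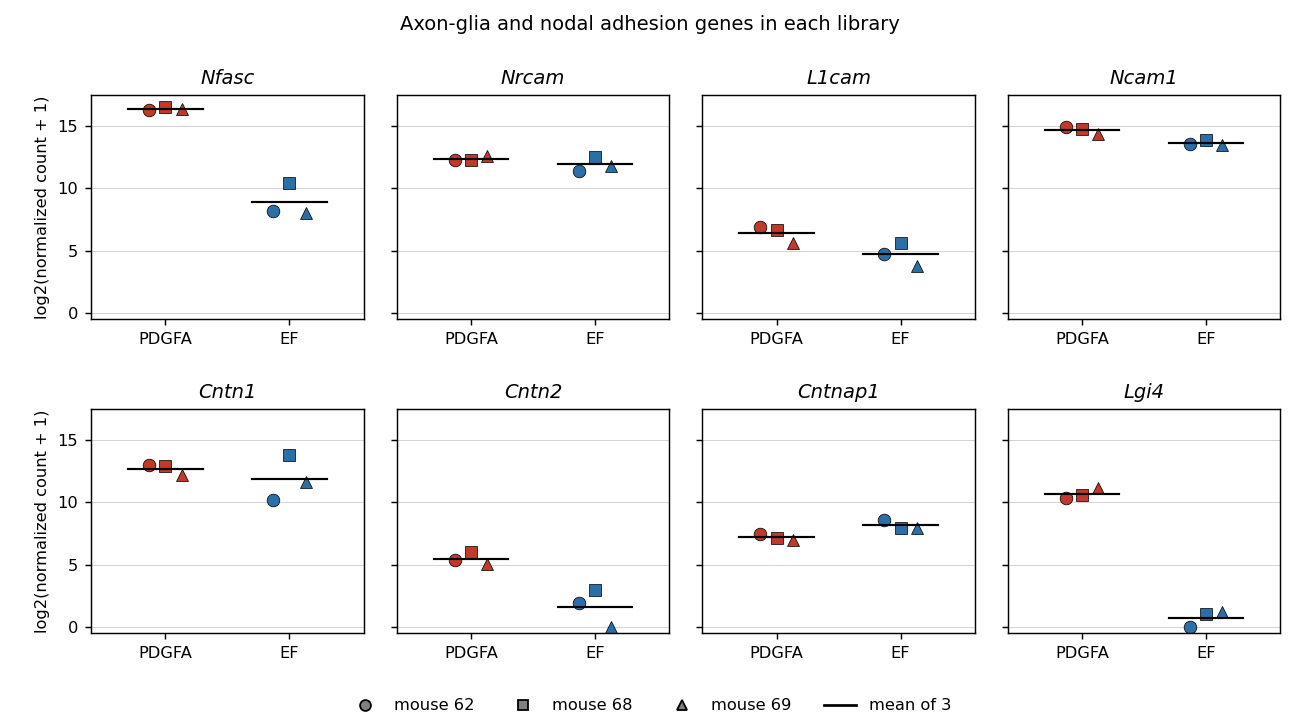
Normalized counts of the 8 genes in each library, as log2(normalized count + 1), with PDGFA libraries in red and EF libraries in blue, a marker shape for each mouse and a bar at the mean of 3 libraries on that scale. Nfasc and Lgi4 are far apart between the groups, while the EF library of mouse 68 (square) lies within or above the PDGFA values for Cntn1 and Nrcam.

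The L1 family of immunoglobulin-type adhesion molecules was led by Nfasc (chromosome 1, 132564690 to 132741797). Nfasc had 77460.5, 92359 and 82777 normalized counts in PDGFA for mice 62, 68 and 69, against 285.4, 1387 and 258.2 in EF. Each PDGFA library lay far above each EF library, and the EF library of mouse 68 was 4.86 times the higher of the other EF libraries. The means were 84199 ± 7550.5 in PDGFA and 643.6 ± 644.0 in EF (SD, n = 3 each), a ratio of 130.8. The log2 fold change was 7.48 (SE 0.59, adjusted p = 8.89e-05, limma), rank 46 from the top of 17068 genes, higher in 3 of 3 mice. Without EF 68 it was 8.27.

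Nrcam, a nodal adhesion molecule that pairs with neurofascin (chromosome 12, 44328885 to 44601964), had 4881, 4950.0 and 6230.4 normalized counts in PDGFA, against 2731, 5802 and 3534 in EF. The groups overlapped, since the EF library of mouse 68 lay between PDGFA values. The log2 fold change was 0.48 (SE 0.27, 95% interval -0.16 to 1.11, adjusted p = 0.201, limma), higher in 2 of 3 mice. Without EF 68 Nrcam passed at 0.78 (adjusted p = 0.0216, limma), and its adjusted p ran over the alternatives between 0.0216 and 0.447.

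L1cam, which guides growing axons (chromosome X, 73853778 to 73896105), was read at a low level. It had 118.8, 99.3 and 48.38 normalized counts in PDGFA, from 140, 104 and 54 reads, against 25.9, 48.41 and 12.8 in EF, from 27, 43 and 10 reads. The PDGFA library of mouse 69 and the EF library of mouse 68 met at the edge of the groups. L1cam rose by 1.67 on the log2 scale (SE 0.56, adjusted p = 0.0481, limma), higher in 3 of 3 mice. That call lay close to the threshold and, in limma, was lost without PDGFA 62 (adjusted p = 0.157), PDGFA 68 (0.150), EF 62 (0.0743) or EF 69 (0.104), and with edgeR (0.0583). Over the alternatives the adjusted p of L1cam ran between 0.0185 and 0.157 (limma, edgeR and DESeq2).

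Chl1, the close homologue of L1 and the remaining family member, fell in PDGFA. It averaged 490.7 ± 269 in PDGFA and 2249 ± 1444 in EF, with -2.22 on the log2 scale (SE 0.60, adjusted p = 0.0222, limma), and was not called without EF 68 (0.0632) or PDGFA 69 (0.0530), in a range of 0.000369 to 0.0748. Counted per kilobase of exon, which allows levels of different genes to be set side by side, Nfasc made up 92.9 ± 0.763% of the summed L1 family level in PDGFA and 7.26 ± 3.66% in EF (SD, n = 3 each). Nrcam made up 6.29 ± 1.02% in PDGFA and 58.8 ± 10.02% in EF, and Chl1 0.627 ± 0.355% in PDGFA and 33.2 ± 7.41% in EF. The summed level of the family was 5912, 6964 and 6339.8 normalized counts per kilobase in PDGFA, against 368.0, 854.9 and 377.7 in EF. The family thus consisted mostly of Nfasc in each PDGFA library and of Nrcam and Chl1 in each EF library.

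**Figure D2:**
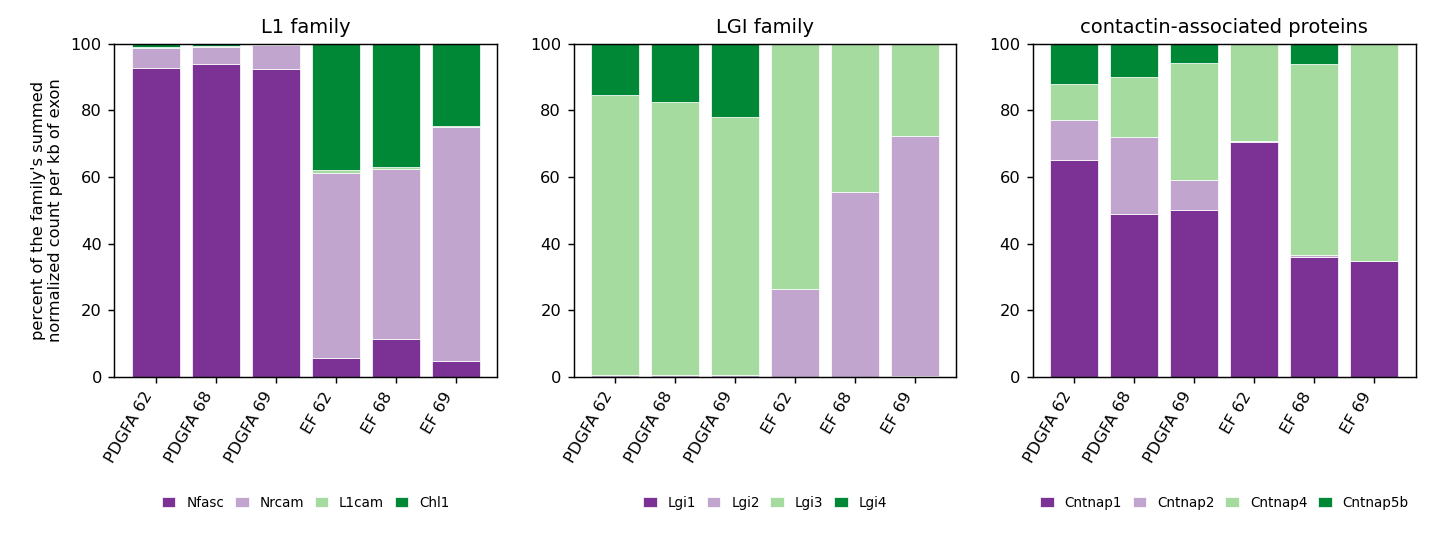
Share of each gene in the summed level of its family, in percent of normalized counts per kilobase of exon, for each of the 3 PDGFA and 3 EF libraries. Nfasc fills 92.3 to 93.8% of the L1 family in PDGFA and 4.83 to 11.5% in EF, and Lgi4 fills 15.5 to 22.1% of the LGI family in PDGFA and at most 0.232% in EF.

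Ncam1, the neural cell adhesion molecule that binds itself on neighbouring cells (chromosome 9, 49502136 to 49798925), was abundant in both media. It had 31517, 27110.5 and 21365 normalized counts in PDGFA, against 11964, 14951 and 11256.5 in EF. The lowest PDGFA value lay above the highest EF value. Ncam1 rose by 1.06 on the log2 scale (SE 0.20, adjusted p = 0.00523, limma), with means of 26664 ± 5091 in PDGFA and 12724 ± 1961 in EF, and higher in 3 of 3 mice. Its relative Ncam2 averaged 8374 ± 847 in PDGFA and 1329 ± 1021 in EF, with 2.92 on the log2 scale (SE 0.46, adjusted p = 0.00222, limma), which was 3.50 without EF 68.

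Polysialic acid, a sugar chain that weakens adhesion by Ncam1, is added by St8sia2 and St8sia4. Of 5 genes listed for this step and for shedding of adhesion molecules, 2 rose, St8sia2 and Bace1, and 3 fell, St8sia4, Adam10 and Adam17. St8sia2 averaged 347.2 in PDGFA and 99.6 in EF (log2 fold change 1.87, adjusted p = 0.0341, limma). St8sia4 averaged 135.2 in PDGFA and 291.3 in EF (-1.14, adjusted p = 0.0258, limma). In limma the call of St8sia2 was lost without PDGFA 68 (adjusted p = 0.122) or PDGFA 69 (0.0813). That of St8sia4 was lost without EF 68 (0.0762), EF 69 (0.0592), PDGFA 68 (0.0543) or PDGFA 69 (0.0692). The calls of Adam10 (up to 0.0725) and Adam17 (up to 0.184) were lost without any of EF 68, PDGFA 62, PDGFA 68 and PDGFA 69, and that of Adam17 also without EF 69. These genes were singled out beyond the naming rule, after their values were seen.

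Contactins are anchored in the membrane by a lipid tail and act through partners. Cntn1, the axonal partner of glial neurofascin that oligodendrocytes and their precursors also make (chromosome 15, 92051165 to 92341967), had 8112, 7942 and 4758 normalized counts in PDGFA, against 1152, 13911 and 3266 in EF. The EF library of mouse 68 was the highest of all 6 and that of mouse 62 the lowest, so the EF values enclosed those of PDGFA. The log2 fold change was 0.85 (SE 0.79, 95% interval -0.99 to 2.69, adjusted p = 0.426, limma), higher in 2 of 3 mice. Cntn1 passed at 1.80 without EF 68 (adjusted p = 0.0270, limma) and stood at 0.00 without EF 62 (adjusted p = 0.9998, limma), the ends of its range over the alternatives. Of 6 markers of oligodendrocyte precursors 2 rose and 3 fell, with summed levels of 118858 to 195076 in PDGFA and 79077 to 146027 in EF, the highest of them in EF 68. Pdgfra, the receptor of PDGFA and a precursor marker named after its values were seen, had 7987 to 17128 normalized counts in PDGFA, against 860.9, 14133 and 533.1 in EF. Pdgfra was not called (log2 fold change 2.79, adjusted p = 0.0823, limma) but was without EF 68 (4.25, adjusted p = 0.00052, limma), while Cspg4, Olig1 and Olig2 of the same list fell. The calls of Olig1 and Olig2 were lost without both libraries of mouse 68, and the adjusted p of Cspg4 reached 0.0834 over the alternatives (limma, edgeR and DESeq2). The risers of the list were Sox10 (log2 fold change 5.28, adjusted p = 0.00572, limma) and Gpr17 (8.59, adjusted p = 0.00427, limma). Gpr17 was the larger part of the PDGFA sums, with 108698, 90998 and 66537 of 195076, 173795 and 118858 for mice 62, 68 and 69. In EF Gpr17 had 122.6, 3702 and 24.3, so the higher sums in PDGFA rest on that gene. The part of precursors in the Cntn1 levels was not tested.

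Cntn2, also called TAG-1, is carried by axons and by glia at the juxtaparanode (chromosome 1, 132509427 to 132543256). Its gene lies 21433 bases from Nfasc on the same strand. Cntn2 had 39.9, 64.0 and 32.3 normalized counts in PDGFA, from 47, 67 and 36 reads, against 2.87, 6.76 and 0 in EF, from 3, 6 and 0 reads. A count of 0 in EF 69 allows up to 3.84 normalized counts, which is 3 reads. The groups did not overlap, and Cntn2 rose by 3.84 on the log2 scale (SE 0.76, adjusted p = 0.00627, limma), higher in 3 of 3 mice. The ratio of the means was 14.1 (95% counting interval 7.25 to 31.5, exact binomial). Leaving out EF 68 gave 4.50, and leaving out EF 69 gave 3.02.

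Among the other contactins, Cntn3 averaged 427.7 ± 54.3 in PDGFA and 126.4 ± 73.8 in EF and rose (log2 fold change 1.98, SE 0.51, adjusted p = 0.0187, limma). It was not called without PDGFA 62 (0.0565), PDGFA 68 (0.0501) or PDGFA 69 (0.0686), in a range of 0.00091 to 0.0691, and leaving out EF 62 gave 1.35. Cntn4 had a log2 fold change of -0.35 (95% interval -2.26 to 1.56, adjusted p = 0.760, limma) and Cntn6 one of -0.32 (95% interval -1.35 to 0.72, adjusted p = 0.601, limma), which was 0.27 without both libraries of mouse 68. Cntn5 averaged 12.3 ± 7.499 in PDGFA and 2.35 ± 2.26 in EF and was too low to be tested. Per kilobase Cntn1 made up 89.4 ± 4.001% of the summed contactin level in PDGFA and 91.96 ± 4.27% in EF.

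Cntnap1, also called Caspr, seals the paranode from the axonal side together with Cntn1 (chromosome 11, 101170523 to 101190724). It was the member of the 8 that fell. Cntnap1 had 180.8, 141.3 and 122.7 normalized counts in PDGFA, against 381.1, 244.3 and 249.3 in EF. The highest PDGFA value lay below the lowest EF value, with means of 148.3 ± 29.6 in PDGFA and 291.6 ± 77.6 in EF. The log2 fold change was -0.96 (SE 0.28, adjusted p = 0.0280, limma), lower in 3 of 3 mice. The limma call was lost without PDGFA 68 (adjusted p = 0.101) or PDGFA 69 (0.0979), and the adjusted p ran between 0.00432 and 0.144 over the alternatives. Exons of Cntnap1 share 233 bases with exons of Plekhh3 on the opposite strand, and the library kit does not mark strand. Plekhh3 averaged 1119 ± 88.2 in PDGFA and 1858 ± 190.3 in EF, a log2 fold change of -0.73 (adjusted p = 0.00572, limma), and its part in the Cntnap1 values was not tested. Without both libraries of mouse 68 Plekhh3 was not called (adjusted p = 0.0876, limma).

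The relatives of Cntnap1 moved in both directions. Cntnap2, the juxtaparanodal partner of Cntn2, averaged 71.2 ± 40.3 in PDGFA and 2.52 ± 2.86 in EF and rose (log2 fold change 4.61, SE 0.75, adjusted p = 0.00266, limma). That value was 5.26 without EF 68 and 3.89 without EF 69. Cntnap4 fell, with 59.97 ± 30.3 in PDGFA and 361.0 ± 173 in EF (-2.55, SE 0.52, adjusted p = 0.00729, limma). Cntnap5b averaged 22.7 ± 8.99 in PDGFA and 13.1 ± 20.8 in EF and was not called (2.01, 95% interval -0.59 to 4.61, adjusted p = 0.189, limma), but was without EF 68 (3.40, adjusted p = 0.00539). Cntnap5b was 1.26 without EF 62 and 1.37 without EF 69, in a range of adjusted p from 0.00539 to 0.639. The summed level of the 4 genes was 47.2, 49.2 and 41.8 normalized counts per kilobase in PDGFA, against 91.9, 115.4 and 122.3 in EF.

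Lgi4 encodes a secreted protein that Schwann cells, the myelinating cells of peripheral nerve, use to signal to axons through the receptor Adam22 (chromosome 7, 31059342 to 31070935). It had 1303, 1528 and 2263 normalized counts in PDGFA, from 1535, 1600 and 2526 reads, against 0, 1.13 and 1.28 in EF, from 0, 1 and 1 reads. The gene was read in depth in each PDGFA library and was at the edge of detection in EF, where a count of 0 in EF 62 allows up to 2.87 normalized counts, which is 3 reads. Lgi4 rose, and the ratio of the means, 1698 ± 502.3 in PDGFA and 0.801 ± 0.698 in EF, was 2119 (95% counting interval 586.2 to 17498, exact binomial). The log2 fold change was 9.93 (SE 0.43, adjusted p = 1.31e-05, limma), rank 8 from the top of 17068 genes, higher in 3 of 3 mice. Of its exon bases 2059 of 4584 are shared with Fxyd3 on the opposite strand, which averaged 12.2 in PDGFA and was listed at 0 in each EF library. Without strand, reads of the pair cannot be told apart there. Ncam1 and L1cam also share exon bases with a neighbour, 417 with the antisense Gm11149 and 100 with Arhgap4.

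Markers of Schwann cells did not move with Lgi4 as a group. Of 4 tested, 3 fell and 1 did not pass, and the summed level of all 6 listed was 306.4 to 600.3 normalized counts in PDGFA and 2843 to 6292 in EF. Oligodendrocyte markers and 4 of 7 astrocyte markers moved with Nfasc and Lgi4, as given above, and their part in these levels was not tested.

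The LGI relatives and the ADAM proteins that bind them changed as well. Lgi3 averaged 6271 ± 430.4 in PDGFA and 235.9 ± 93.3 in EF and rose (log2 fold change 4.82, SE 0.31, adjusted p = 4e-05, limma). Lgi2 fell, with 72.4 ± 6.19 in PDGFA and 441.6 ± 227 in EF (-2.42, SE 0.46, adjusted p = 0.00516, limma). Lgi1 averaged 5.45 ± 1.90 in PDGFA and 1.23 ± 1.28 in EF and was too low to be tested. Adam22, the Lgi4 receptor, rose to 3383 ± 190.0 in PDGFA, against 1282 ± 614 in EF (1.53, SE 0.35, adjusted p = 0.0113, limma). Adam23 rose to 1753 ± 297 in PDGFA, against 177.1 ± 97.1 in EF (3.42, SE 0.37, adjusted p = 0.000363, limma). Adam11 rose to 1614 ± 49.6 in PDGFA, against 378.6 ± 133 in EF (2.16, SE 0.27, adjusted p = 0.000751, limma). Ligand Lgi4 and receptor Adam22 were thus both read in each PDGFA library, and Adam22 without more than 1 read of Lgi4 in each EF library.

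**Figure D3:**
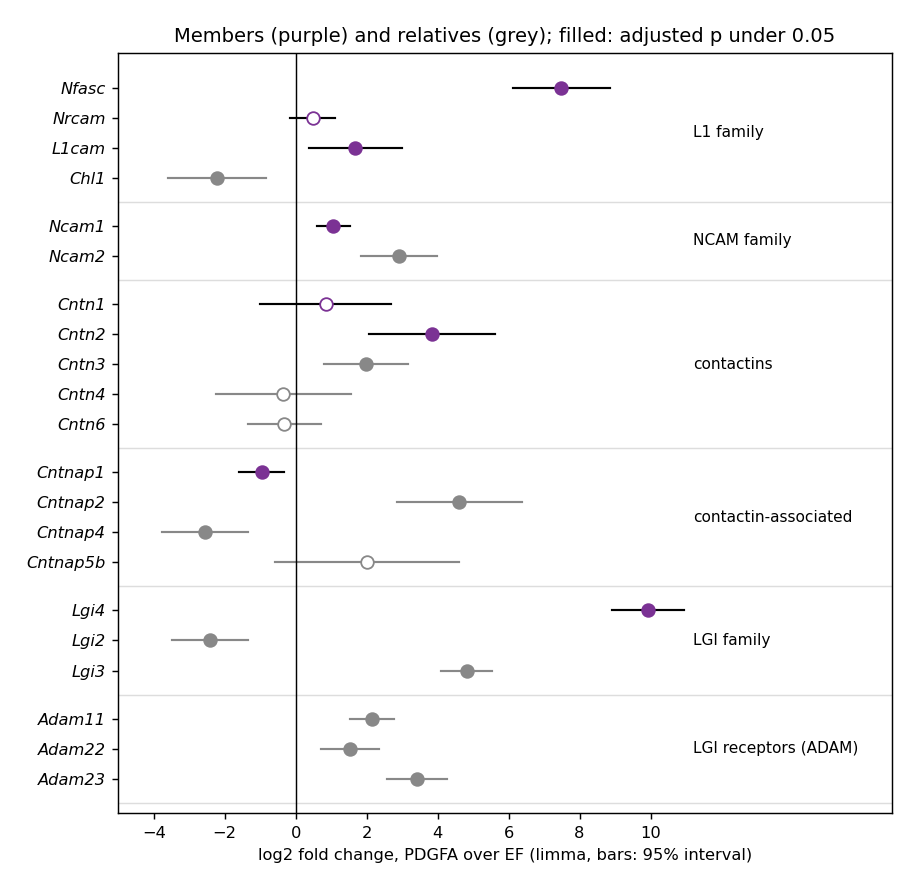
Log2 fold changes of PDGFA over EF with 95% intervals from limma, for the 8 genes (purple) and their tested relatives and receptors (grey), grouped by family; filled points passed at an adjusted p under 0.05. Values run from -2.55 for Cntnap4 to 9.93 for Lgi4, and each of the L1, contactin-associated and LGI families holds called genes on both sides of 0. The contactins below 0, Cntn4 and Cntn6, were not called.

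Levels per kilobase of exon ranked the 8 genes differently in the media. The exon length is the union over all annotated transcripts, so a gene with many forms may be placed too low. In PDGFA the order was Nfasc (5953 ± 534 normalized counts per kilobase), Ncam1 (3078 ± 588), Cntn1 (735.4 ± 200.3), Nrcam (400.8 ± 56.9), Lgi4 (370.4 ± 110), Cntnap1 (25.2 ± 5.05), L1cam (12.1 ± 4.95) and Cntn2 (4.88 ± 1.78). In that order the libraries of Nrcam and Lgi4 overlapped, and so did those of L1cam and Cntn2. In EF the order was Ncam1 (1469 ± 226), Cntn1 (647.7 ± 725), Nrcam (301.1 ± 119), Cntnap1 (49.6 ± 13.2), Nfasc (45.5 ± 45.5), L1cam (3.95 ± 2.45), Cntn2 (0.345 ± 0.364) and Lgi4 (0.175 ± 0.152). There Ncam1 overlapped Cntn1, Cntn1 overlapped Nrcam, Cntnap1 overlapped Nfasc and Cntn2 overlapped Lgi4.

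Within each library, Nfasc stood in another proportion to its paranodal partners in PDGFA than in EF. Per kilobase, Nfasc was 6.37, 7.76 and 11.6 times the level of Cntn1 in the PDGFA libraries of mice 62, 68 and 69, against 0.165, 0.0665 and 0.0527 times in the EF libraries. Nfasc was 178.0, 271.4 and 280.1 times the level of Cntnap1 in PDGFA, against 0.311, 2.36 and 0.430 times in EF. Cntn1 was 27.95, 35.0 and 24.1 times the level of Cntnap1 in PDGFA, against 1.88, 35.5 and 8.16 times in EF, so that this ratio overlapped and was highest in EF 68. By level, Nfasc was number 103, 74 and 94 of 21489 genes with an exon length in PDGFA, against 14167, 9291 and 13237 in EF. Ncam1 was number 193, 252 and 333 in PDGFA, against 604, 598 and 1066 in EF.

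The fold changes were also fitted with 1 library left out. A call lost there can reflect fewer libraries as well as the library removed, and these were not told apart. Nfasc, Lgi4, Ncam1 and Cntn2 stayed called and higher in each of the 6 cases. Nrcam and Cntn1 passed in 1 case each, without EF 68, while L1cam failed in 4 cases and Cntnap1 in 2. Some of these calls were lost with little change in the fold change. Cntnap1 was -0.93 without PDGFA 68, beside -0.96 with all 6 libraries, and L1cam was 1.69 without EF 62, beside 1.67.

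**Figure D4:**
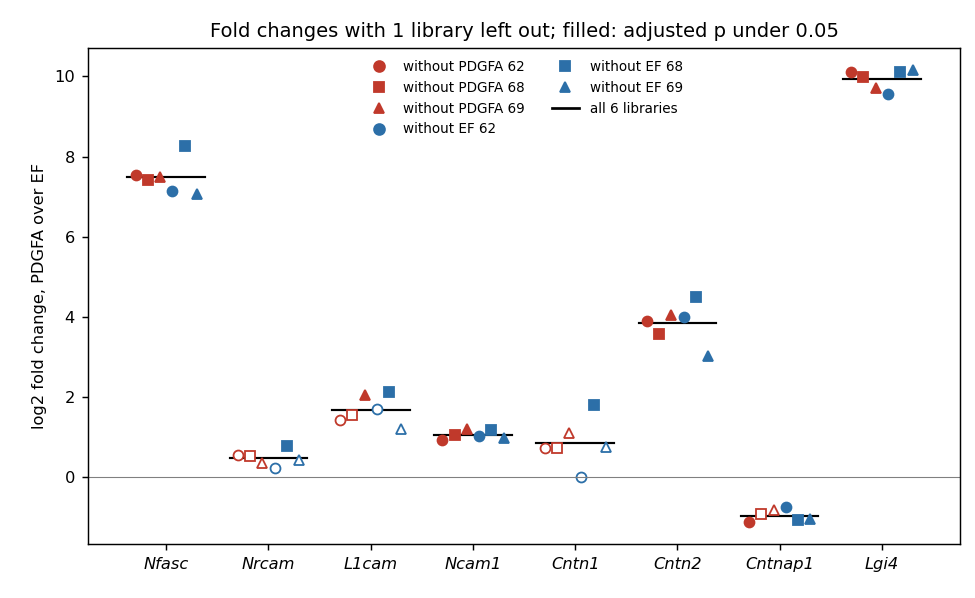
Log2 fold change of PDGFA over EF for the 8 genes when 1 library is left out, with the value from all 6 libraries as a bar; colours give the group and shapes the mouse of the library left out, and filled points passed at an adjusted p under 0.05. Nfasc runs from 7.06 to 8.27, and Cntn1 from 0.00 without EF 62 to 1.80 without EF 68.

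The wider setting of these molecules was followed in 69 listed partner genes, of which 62 could be tested, 30 rose and 12 fell. Over all genes tested 21.8% rose and 18.0% fell, so the number of partner genes that fell was near the background share. Their median log2 fold change was 1.09, beside -0.009 over all genes tested, and the lists were drawn up with earlier results of these data known. Of 7 ankyrins, spectrins and 4.1 proteins listed as scaffold of the node and paranode 4 rose and 1 fell. Epb41l2 rose to 47390 ± 1763 in PDGFA, against 3653 ± 277 in EF (log2 fold change 3.70, SE 0.14, adjusted p = 9.22e-06, limma). Epb41l3, the 4.1B protein that anchors the paranode, averaged 466.8 ± 285 in PDGFA and 49.2 ± 34.98 in EF (3.18, SE 0.68, adjusted p = 0.00872, limma), a value that was 3.85 without PDGFA 69. Ank3, ankyrin G of the node, averaged 2370.4 in PDGFA and 702.6 in EF (1.91, adjusted p = 0.00715, limma), and was named after its value was seen.

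Of 10 tested sodium and potassium channels of nodes and juxtaparanodes 2 rose, none fell and 8 did not pass in limma. At an unadjusted p under 0.05 limma had 1 of them lower, and edgeR and DESeq2 called 0 lower after adjustment, with 0 and 1 at the unadjusted p. The risers were Scn2b, a sodium channel beta subunit with 25.0 ± 2.65 in PDGFA and 4.23 ± 3.48 in EF (log2 fold change 2.57, adjusted p = 0.0122, limma), and Kcnq3, named after its value was seen, with 1249.6 in PDGFA and 390.4 in EF (1.76, adjusted p = 0.00693, limma). In edgeR and DESeq2 the 62 partner genes gave 30 higher each, and 12 and 15 lower.

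Of 8 tested matrix proteins and glial ligands of the node 4 rose and 2 fell. Tnr, tenascin R of perinodal matrix, averaged 124528 ± 17503 in PDGFA and 2548 ± 3651 in EF (log2 fold change 6.84, SE 0.99, adjusted p = 0.00152, limma). Tnr was 8.17 without EF 68 and 6.02 without EF 62. Tnc, tenascin C, fell to 9894 ± 3391 in PDGFA, against 93917 ± 12389 in EF (-3.31, SE 0.29, adjusted p = 0.000154, limma). Omg, an oligodendrocyte glycoprotein at nodes, averaged 2405 ± 363 in PDGFA and 453.0 ± 524 in EF (3.06, adjusted p = 0.0129, limma), and was 4.01 without EF 68 and 2.43 without EF 62. Hapln2, a link protein of nodal matrix, averaged 26.5 ± 9.90 in PDGFA and 2.72 ± 2.62 in EF (3.04, adjusted p = 0.00575, limma). Gldn, the ligand that gathers neurofascin at peripheral nodes, averaged 9.68 in PDGFA and 4.06 in EF and was too low to be tested.

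All 8 genes listed for adhesion along the internode and on the myelin surface rose, with a median log2 fold change of 4.90. With Mog, which was at 0 in each EF library, set to its bound of at least 24.8-fold (against 3 reads over the EF group), the median was 4.81. Mag, the myelin-associated glycoprotein, averaged 4227 ± 1277 in PDGFA and 2.40 ± 2.10 in EF, a log2 fold change of 10.54, which was 9.80 without EF 62. Cadm4, the nectin-like molecule of myelin, averaged 19610.5 ± 1371 in PDGFA and 4486 ± 2982 in EF (2.33, SE 0.41, adjusted p = 0.00369, limma). Its axonal partner Cadm3 averaged 4607 ± 185 in PDGFA and 109.0 ± 107 in EF (5.94, SE 0.70, adjusted p = 0.000581, limma), and was 6.75 without EF 68 and 5.12 without EF 62. Cadm2 had a log2 fold change of 3.78 (4.63 without EF 68, 2.92 without EF 69), Cadm1 one of 2.22 and Opalin one of 4.99, with adjusted p-values up to 0.00564 (limma). Mag and Mog are also among the oligodendrocyte markers given above.

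**Figure D5:**
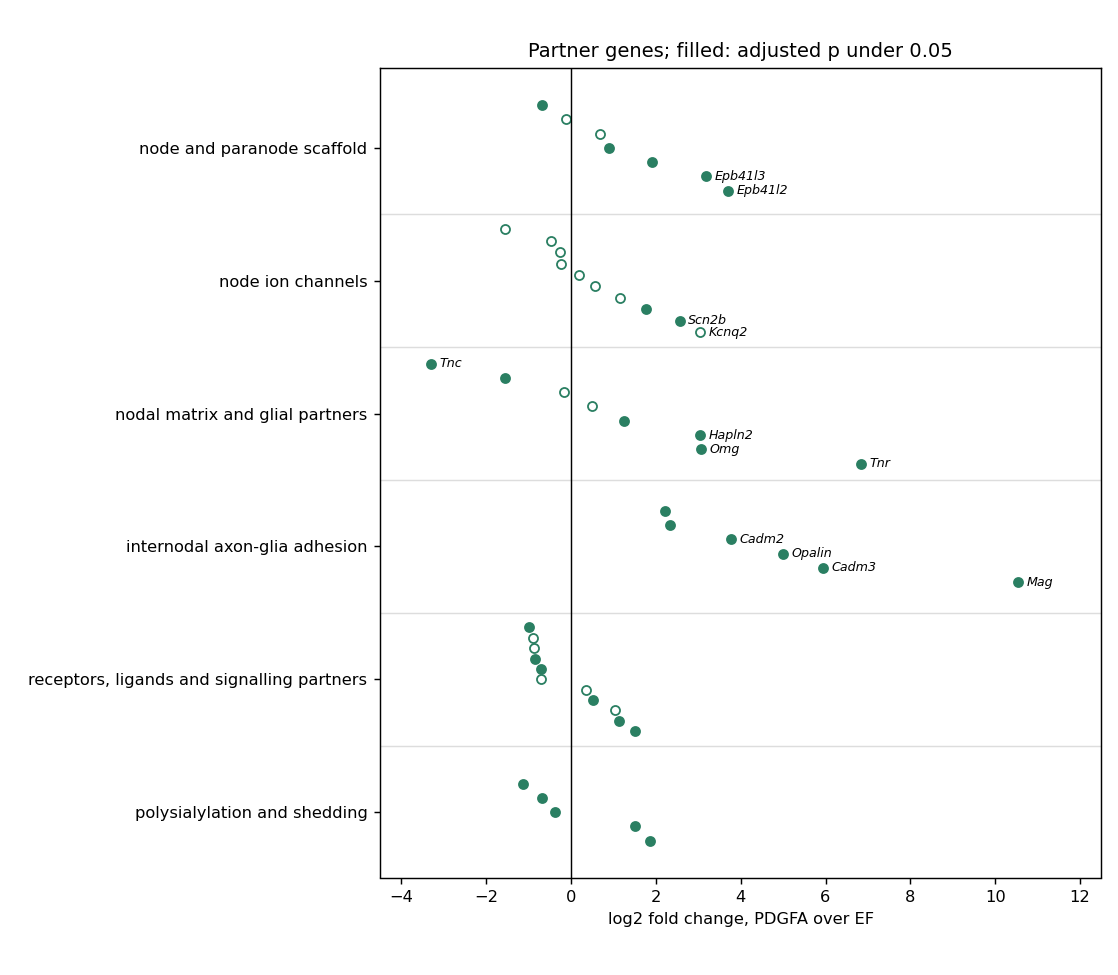
Log2 fold changes of PDGFA over EF for the tested partner genes outside the members' own families, 1 point per gene and 1 row per list; filled points passed at an adjusted p under 0.05, and of the 8 internodal genes 6 are drawn, Mog, at 0 in EF, not among them. These 6 lie between 2.22 and 10.54, while 8 of 10 ion channels are open points.

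Of 11 receptors and signalling partners 3 rose, 3 fell and 5 did not pass, with a median log2 fold change of -0.71. Fyn, the kinase that acts below contactin 1 in oligodendrocytes, averaged 43334 in PDGFA and 19674 in EF (1.14, adjusted p = 0.00269, limma). Ptprz1, a receptor phosphatase that binds Cntn1, averaged 61574 in PDGFA and 107589 in EF (-0.71, adjusted p = 0.139, limma). Both were named after their values were seen.

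Genes with a profile most like each of the 8 were sought by the root mean square difference of mean-centred log2 values over the 6 libraries. For Nfasc they were Sh3gl3 (0.334) and Zfp804a (0.409), for Lgi4 Tmem163 (0.44), and for Cntn2 Rasgrf1 (0.272) and Cadm2 (0.295). Cntn1 was closest to Kcnd2 (0.17) and Sorcs3 (0.266). The closest to Ncam1 were Slc45a4 (0.091) and Ptprj (0.111), to L1cam Rab3c (0.197) and Oprl1 (0.209), to Nrcam Mgst3 (0.047) and Il25 (0.083), and to Cntnap1 Mdn1 and Sh3d21 (0.045 each). The measure is a description over 6 libraries in 2 groups that share their depth and scaling, and it carries no test.

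Neurons are also known to make Ncam1, L1cam, Nrcam, Cntn1, Cntn2 and Cntnap1. Dcx, a marker of young neurons that was chosen after its value was seen, had 3884 to 5702 normalized counts in PDGFA and 21.7 to 345.6 in EF. Tubb3 rose and Elavl4 fell, a call that was lost without both libraries of mouse 68 (adjusted p = 0.0532, limma), and most of the list did not pass. Stmn2 was read at 4.48 to 21.01 in PDGFA and at most 2.25 in EF, and Snap25 at 69.9 to 128.9 in PDGFA and 71.8 to 297.2 in EF (log2 fold change -0.20, adjusted p = 0.803, limma). The part of neurons in the levels of the 8 genes was not tested.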

How the data were processed

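Polyadenylated RNA of 6 libraries (mice 62, 68 and 69 in each medium) was sequenced with a kit that does not mark strand. Per the submitters' processing notes, FastQC, STAR and DESeq2 were used with mm10/GRCm38. Their versions and the annotation used are unknown here. The values as deposited by the authors are a signal, gene counts divided by a size factor (0.782 to 1.18). All of them gave whole reads within 0.001.

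PDGFA was tested against EF with limma 3.58.1 (R 4.3.3; lmFit, eBayes with a trend, two-sided) on log2(value + 1), which understates changes of low genes. The test took genes with a mean of at least 10 (17068; 4989 not tested), with Benjamini-Hochberg adjustment at 0.05. edgeR 4.0.16 and DESeq2 1.42.0 on the recovered reads were alternatives. The scripts were tested on simulated counts. Exon lengths came from GENCODE M21 (GRCm38), promoters from RefSeq (GRCm38.p6). Intervals on reads cover counting error only.

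Libraries of 1 number come from the same mouse, so the numbers pair the samples. The correlation of their deviations from the group means was -0.091, 0.11 and -0.11 for mice 62, 68 and 69. The labels name separate mice but 1 culture of each per medium.

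Named partner genes were those called with means at least 4-fold apart, all family relatives, Adam22 and Adam23. Others named are marked as chosen after their values were seen. Members, lists and promoter windows were chosen with earlier results of these data known. Some results on single genes are not reported here.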

Additional observations from a re-analysis of the deposited data

How the results depend on the processing

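Nfasc, Ncam1 and Lgi4 stayed called and higher under all 18 alternatives, and Cntn2 under the 17 it entered. With the mouse as a replicate block, 5 of the 8 genes were called higher and 1 lower, with no call changed. Over all genes the block called 3213 higher and 2626 lower, and edgeR with the block, an alternative chosen after seeing the data, 3040 and 2498. edgeR without it called 3592 and 3263, DESeq2 3942 and 3746.

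L1cam was no longer called with a mean of at least 50 (1.67), without a trend (1.67), with TMM scaling (1.67), scaled to the library total (1.61), in edgeR (1.6) and without both libraries of mouse 68 (2.0). With a mean of at least 50, 3 of the 8 genes were called higher, since Cntn2 was not tested. Without mouse 68, Cntnap1 was -1.04 and not called, so that limma called 0 of the 8 lower (1 at an unadjusted p under 0.05; edgeR and DESeq2 were run on all libraries, with 1 each), and Cntn6 turned to 0.27. That setting called 1943 genes higher and 1333 lower, and 2 partner genes lower. Of the named partner genes it also ended the calls of Chl1, Cntn3, Cntnap4, Lgi2, Hapln2, St8sia2, St8sia4, Adam10 and Adam17, and has 2 libraries a group.

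With 1 library left out, log2 fold changes ran from 0.00 to 1.80 for Cntn1, -1.11 to -0.75 for Cntnap1, 1.21 to 2.13 for L1cam and 0.23 to 0.78 for Nrcam. Genes called higher ran from 2245 to 4271 and lower from 1873 to 3818, the lowest of both without PDGFA 68. Of the 8 genes 0 to 1 were called lower, and of the partner genes 7 to 14. The cause was not tested. Depth limits Cntn2 and Lgi4 in EF, which rest on 9 and 2 reads.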
